A study of Homo sapiens with 20 samples.

Results

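The RNA regions described here are those that IGF2BP3 occupied in vehicle-treated cells and at which no binding was called after 4 h of tunicamycin. Binding had been recorded as clusters, stretches of RNA where overlapping reads carry T-to-C conversions, with 1 list of clusters per library. Clusters of the 3 DMSO lists and the 3 lists of tunicamycin (TM) for 4 h were merged wherever they shared at least 1 nt on the same strand, leaving out the mitochondrial chromosome, which gave 68591 regions. A place without a cluster can still hold reads too few or too little converted to be called, and the lists do not show them. A region was taken as lost when it held clusters in 2 or 3 DMSO lists and in none of the 3 TM 4 h lists. This held for 1391 regions, 6.04% of the 23048 regions found in 2 or 3 DMSO lists. The members were thus chosen by the DMSO and TM 4 h clusters themselves, and the values in those 6 libraries are descriptions that carry no test. For comparison, 1832 regions were gained (2 or 3 TM 4 h lists and no DMSO list, 8.36% of the 21904 regions in 2 or 3 TM 4 h lists) and 21657 were retained (2 or 3 DMSO lists and at least 1 TM 4 h list).

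All libraries came from HCT116 cells, an established line from a human colorectal carcinoma, in a version that carries inducible OsTIR1, a plant protein. In PAR-CLIP, cells incorporate 4-thiouridine into new RNA, ultraviolet light crosslinks it to bound protein, and the crosslinked sites are read as T-to-C changes. Every group received 4-thiouridine at 100 µM for 15 h. The 5 groups of 3 anti-IGF2BP3 libraries were DMSO for 4 h, TM at 5 µg/mL for 1 h, TM at the same dose for 4 h, PBS for 2 h, and arsenite at 250 µM for 2 h, each with 1 library made with control IgG. Arsenite is the name in the sample titles, and the protocol writes arsenate; the protocol gives 4 h for tunicamycin, and the 1 h comes from the titles. No separate cultures are named for the replicates, so the spread between them may be technical. The cells are a bulk population, in which fewer bound RNA molecules per cell and fewer cells holding the RNA cannot be told apart.

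IGF2BP3 is an oncofetal RNA-binding protein with paired RRM and KH domains that binds mainly in 3′ untranslated regions and can protect mRNAs from decay. Its KH domains recognise short C- and A-rich elements such as CA and CAU. Tunicamycin blocks N-linked glycosylation and so causes the accumulation of unfolded proteins in the endoplasmic reticulum. The sensors IRE1, PERK and ATF6 then start the unfolded protein response, in which IRE1 splices XBP1 mRNA and cleaves other RNAs at the endoplasmic reticulum, PERK slows translation, and ATF6 becomes a transcription factor.

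The sequences below show what the best-covered lost regions looked like, with the second set taken from regions found in all 3 DMSO lists. Each is up to 30 nt around the modal position of the DMSO cluster with most reads, or the whole cluster where that was shorter, written 5′ to 3′ as the files give it with T for U. Capitals mark CACA, and CAT followed by any base but G, the elements searched on the RNA strand, which may overlap one another. Coordinates are on GRCh38.
NR4A1, chr12:52054542-52054571, plus strand: ccaggaacagtccagccatgctcctcagcc
NR4A1, chr12:52059104-52059133, plus strand: tggggagggggatgccttcatgggggtgac
ELK3, chr12:96267495-96267524, plus strand: gtgaagcttttttctctttagttctgagta
SHROOM3, chr4:76668966-76668989, plus strand: tggCATAtgtgCACAagCATAttg
Chromosome 11, outside genes, chr11:94181972-94182001, plus strand: atgtaagcttatttCATAaaCATTtaaagc
FBRSL1, chr12:132583997-132584026, plus strand: ccttttcccccCACAgatgagaagtgtttg
NUP153, chr6:17615452-17615481, minus strand: cctatcacctgtcttgcctttttCATTatt
FMO4, chr1:171340779-171340805, plus strand: ctttaagatatcCATCtttttcttttt
LHX4, chr1:180262097-180262124, plus strand: gtttcctataagCATTccttttattctc
QSOX2, chr9:136208604-136208633, minus strand: taaacatgcgggcctggtttCACATCggat
MIR100HG, chr11:122091144-122091173, minus strand: accaatcgatCATTtttttttaatcaagaa
VSIG10, chr12:118065354-118065383, minus strand: gcagagcttCATAtttatatacaagcctcc
Runs of T adjoin or flank the capitals in NUP153, FMO4 and MIR100HG, while the NR4A1 and ELK3 windows hold none of the elements searched. Both NR4A1 windows do hold CAT followed by G, which was not searched.

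Lost regions were thinly covered. Their reads summed over the 3 DMSO libraries ranged from 6 to 45 with a median of 13 (interquartile range 11 to 16), against a median of 31 for retained regions. Only 151 lost regions had at least 20 DMSO reads and 13 had at least 30. They were also short, with a median of 59 nt (21 to 177 nt), against 63 nt for gained and 118 nt for retained regions. The share of DMSO regions that were lost was 43.9% at 8 reads or fewer, 19.7% at 11 to 15 reads, 2.87% at 21 to 30 reads and 0.272% at 31 to 50 reads. None of the 3521 regions with 51 to 100 DMSO reads and none of the 3565 with more was lost. The gained regions followed the same course, with 54.5%, 30.4%, 5.37% and 1.48% in the first 4 of these classes, and 4 of 3809 regions above 100 reads.

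**Figure D1:**
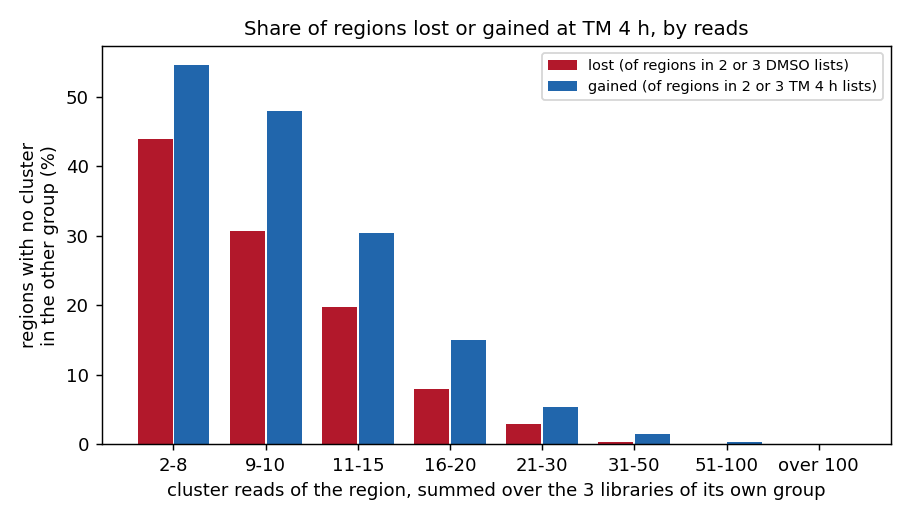
Bars give the percentage of regions in 2 or 3 lists of one group that had no cluster in the other group, by the reads summed over the 3 libraries of their own group, with lost regions in red and gained regions in blue. The lost share falls from 43.9% at 8 reads or fewer to 0.272% at 31 to 50 reads and 0 above 50, and the gained share is higher in every class.

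Most lost regions came from the deeper DMSO libraries. The total gene count was 374238, 960565 and 1287291 in DMSO replicates 1 to 3 and 457179, 765710 and 1568406 in the TM 4 h replicates, and ranged from 130478 to 1098488 in the other 9 libraries. Of the lost regions, 1282 were found in DMSO replicates 2 and 3 alone, 58 in replicates 1 and 3, 24 in replicates 1 and 2, and 27 in all 3. Without DMSO replicate 3 the rule returned 57 regions, without DMSO replicate 2 it returned 91, and without TM 4 h replicate 3 it returned 6896. Just outside the rule lay 11773 regions in 1 DMSO list and no TM 4 h list, with a median of 5 reads, and 5309 regions in 2 or 3 DMSO lists and 1 TM 4 h list, with medians of 17 DMSO and 10 TM 4 h reads. A TM 4 h cluster lay within 50 nt of 499 lost regions, and 892 had none that close. No lost region held a cluster in any of the 5 IgG lists, which contained 25 to 152 clusters each; 0 of 1391 regions allows a share of up to 0.216%, for counting error only.

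The 10 lost regions with most DMSO reads lay in 8 genes and 1 stretch outside genes. DNAL1, an axonemal dynein chain, tied with the last of them at 31 reads and is left out by chromosome order. The lost region with the highest sum lay in ELK3, an ETS-family transcription factor, at chr12:96267408-96267544, 2348 nt upstream of the gene's 3′ end. It held 0, 16 and 29 reads in DMSO replicates 1 to 3, 20 in TM 1 h replicate 3, 4 in PBS replicate 3 and 0 in the other 10 libraries. Reads were thus seen in the deeper DMSO libraries and in the deepest TM 1 h library.

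NR4A1, an orphan nuclear receptor of the immediate early class, held a pair of lost regions. The first, chr12:52054542-52054685, lay 4890 nt from the gene's 3′ end and had 0, 8 and 36 reads in DMSO, 0 in all TM 1 h, TM 4 h and PBS libraries, and 48, 49 and 259 in arsenite. The second, chr12:52059104-52059185, lay 359 nt from that end and had 0, 5 and 30 reads in DMSO, 13 in TM 1 h replicate 3, 0 in TM 4 h and PBS, and 58, 81 and 231 in arsenite. Counts in a library are those of every cluster touching the region, so a longer arsenite cluster contributes all its reads. The absence of clusters in TM 4 h follows from the rule, and no PBS library held a cluster there. Both regions had clusters in every arsenite library.

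The remaining regions of this set had smaller sums. SHROOM3, which binds actin and shapes epithelial apices, had 0, 18 and 26 DMSO reads at chr4:76668966-76668993, and 10 reads in TM 1 h replicate 2 alone among the other libraries. This region lay 114274 nt from the end of the gene. The region at chr11:94181972-94182120 lay in no gene of the table used and had 0, 25 and 14 DMSO reads. KBTBD6, an adaptor of a cullin ubiquitin ligase, had 0, 14 and 17 DMSO reads, and was the only one of the 10 with reads in all 3 TM 1 h libraries (5, 6 and 9). NUP153, a protein of the nuclear pore basket, had 6, 8 and 18 DMSO reads at chr6:17615452-17615506, 0, 7 and 10 in TM 1 h and 0, 21 and 20 in arsenite. TMEM106B, NUP153 and FMO4 were the regions of the 10 present in the shallowest DMSO library, replicate 1.

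**Figure D2:**
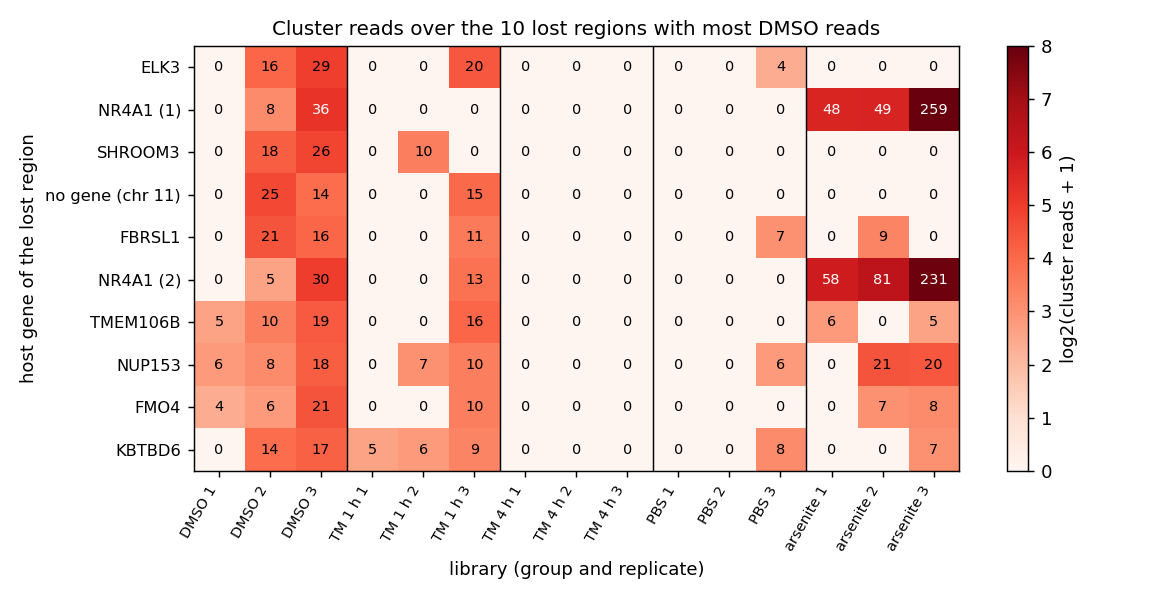
Rows are the 10 lost regions with most DMSO reads, named by host gene, and columns the 15 anti-IGF2BP3 libraries; each cell prints the cluster reads and is shaded by log2 of reads plus 1. The TM 4 h columns are 0 by the rule, and both NR4A1 regions carry 48 to 259 reads in the arsenite libraries.

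The 27 lost regions found in all 3 DMSO lists carried 12 to 34 DMSO reads. They make up 0.324% of the 8331 regions in all 3 DMSO lists, against 123 gained regions, 1.24% of the 9919 regions in all 3 TM 4 h lists. Of the 27, 16 had a cluster in TM 1 h, 13 in arsenite and 6 in PBS, and 6 had none in any of the 9 libraries that the rule did not use. LHX4, a LIM-homeodomain transcription factor, held 6, 7 and 8 DMSO reads at chr1:180262097-180262149 and was among the regions found in most of those 9 libraries, with 7 reads in TM 1 h replicate 3, 6 in PBS replicate 3 and 7, 10 and 9 in arsenite. The LHX4 region was thus low but present in every DMSO and every arsenite library. QSOX2, a sulfhydryl oxidase, had 5, 11 and 11 DMSO reads at chr9:136208539-136208633 and none elsewhere. MIR100HG, a long noncoding RNA that hosts microRNA genes, had 5, 9 and 10 DMSO reads at chr11:122091144-122091221, 62853 nt from its 3′ end, and none elsewhere. VSIG10, an immunoglobulin-domain membrane protein, had 5, 7 and 10 DMSO reads at chr12:118065337-118065409 and none elsewhere. Among these 27 regions, the last 3 are those with most DMSO reads that were absent from all 9 libraries.

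Most lost regions could be placed in a single gene, and most of those placed on a protein-coding gene's strand lay toward its 3′ end. Of the 1391, 982 could be placed in a single gene on the same strand and 184 by position in a single protein-coding gene whose strand was not listed, 83.8% in all; 167 lay in no gene. Among lost regions placed on the strand of a protein-coding gene the median distance to the gene's 3′ end was 2644 nt, against 3460 nt for gained and 2202 nt for retained regions. Lost regions lay within 5000 nt of that end in 68.4% of cases, gained regions in 60.2% and retained regions in 72.6%. The last 10% of the gene's span held 62.7% of lost, 47.8% of gained and 61.8% of retained regions. In position the lost regions thus sat near the retained ones, and the gained regions stood further inside genes. Exons, introns and untranslated regions were not analysed here. The cluster sequence of 27 lost regions (1.94%) was identical to that of another merged region, so reads of such regions may belong to either copy; the share was 2.67% for gained and 2.24% for retained regions.

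In their share of T and G the lost regions were nearer to retained than to gained regions. T made up 33.2% of the bases in lost clusters, 32.1% in retained and 28.9% in gained clusters, and G made up 17.1%, 17.8% and 19.5%. In the 30-nt windows, available for 1239 lost, 20855 retained and 1684 gained regions, CATT occurred in 22.4%, 19.6% and 17.6%, CATA in 11.9%, 11.4% and 11.1%, and CATC in 15.1%, 13.4% and 16.2%. At least 1 of these elements occurred in 42.5% of lost, 39.2% of retained and 39.96% of gained windows. TTTT occurred in 22.8% of lost, 19.5% of retained and 15.3% of gained windows. GGAC, the core of the site of adenosine methylation that IGF2BP proteins can read, occurred in 5.25% of lost, 7.35% of retained and 8.49% of gained windows. CACA was alike in the 3 classes, at 16.3%, 16.4% and 16.2%. These shares are over regions, several of which share a gene, and have no replicate error.

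**Figure D3:**
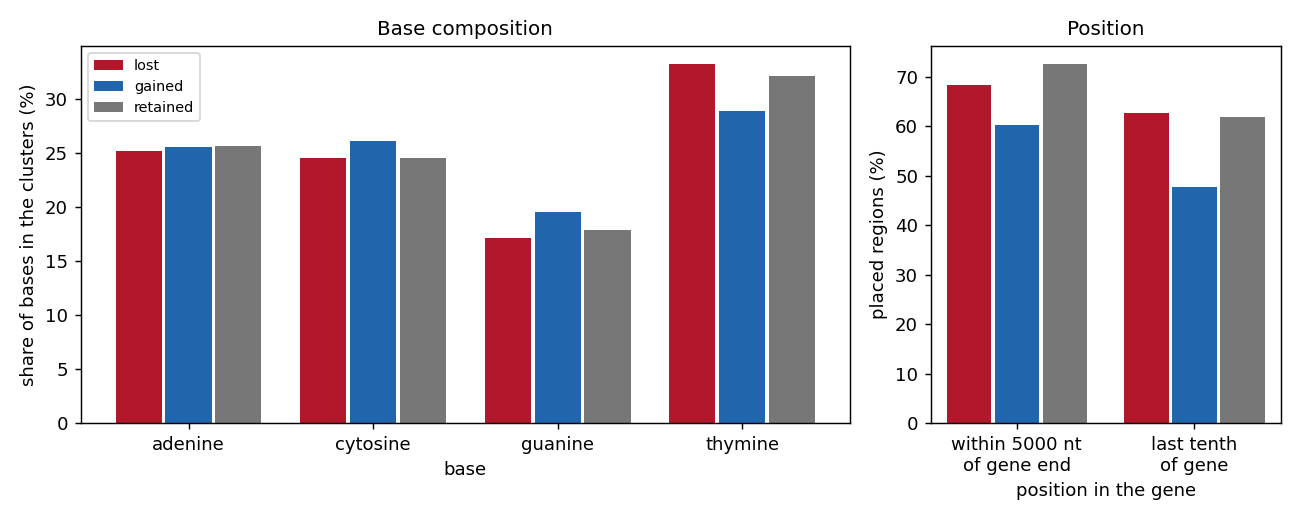
The left panel gives the share of each base in the clusters of lost, gained and retained regions, and the right panel the percentage of regions placed on a protein-coding gene's strand that lie within 5000 nt of its 3′ end or in the last 10% of its span. Thymine is 33.2% in lost and 28.9% in gained clusters, and the last 10% holds 62.7% of lost and 47.8% of gained regions.

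The lost regions were spread over 991 host genes, 18.6% of the 5320 genes with a region in 2 or 3 DMSO lists. A single lost region was held by 859 of them, a pair by 104, and 3 to 5 by 28. In 820 host genes (82.7%) at least 1 other region was retained, and 212 also gained a region, of 1238 genes with a gained region. All DMSO regions were lost in the other 171 host genes, and 49 of the 991 had no TM 4 h cluster at all. Every gene of the 5320 outside these 171 kept a region, so keeping one is not particular to host genes.

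The 10 genes with most lost regions held 43 of them, with 9 to 25 DMSO reads each, and 18 of the 43 had no cluster in any of the 9 other libraries. NR2F2, an orphan nuclear receptor also called COUP-TFII, had 5 lost and 3 retained regions. Its strongest lost region, chr15:96337175-96337243, had 0, 8 and 17 DMSO reads, 6 in TM 1 h replicate 2 and 7 in arsenite replicate 3. Another pair of its lost regions, chr15:96336465-96336515 and chr15:96336529-96336602, each had 0, 5 and 6 DMSO reads and none in any other library. Cluster reads of NR2F2 outside the lost regions, scaled to 1000000 cluster reads per library (RPM), were 0, 73.3 and 139 in DMSO and 19.2, 20.4 and 44.3 in TM 4 h. The groups overlapped because DMSO replicate 1 was at 0.

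TNRC6B, a scaffold of microRNA silencing complexes, had 5 lost, 5 retained and 1 gained region. Its lost regions had 9 to 16 DMSO reads each, and the strongest, chr22:40332293-40332343, had 0, 6 and 10, with none in any other library. TNRC6B outside the lost regions was at 15.1, 153 and 162 RPM in DMSO and 53.7, 162 and 180 RPM in TM 4 h. NTSR1, the neurotensin receptor, had 5 lost and 12 retained regions, and outside the lost ones stood at 287, 301 and 334 RPM in DMSO and 261, 251 and 312 RPM in TM 4 h. Both genes therefore kept similar cluster reads elsewhere while these sites were not called.

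The other 7 genes had 4 lost regions each. PTPN14, a phosphatase that restrains YAP, kept 19 regions and stood at 393, 600 and 586 RPM outside the lost regions in DMSO and 453, 433 and 468 RPM in TM 4 h. ZBTB20, a zinc-finger repressor, kept 26 and stood at 907, 919 and 1158 RPM against 745, 1014 and 798 RPM. DCBLD2, a neuropilin-like membrane protein, kept 21 and stood at 7945, 5483 and 5530 RPM against 6885, 5341 and 4324 RPM. In all 3 genes the groups overlapped. PAFAH1B1, which regulates dynein, stood at 207, 338 and 281 RPM in DMSO and 200, 186 and 209 RPM in TM 4 h, an overlap set by DMSO replicate 1. AGPAT3, an acyltransferase of phospholipid synthesis, was the thinnest, at 0, 28.5 and 40.3 RPM against 0, 0 and 22.9 RPM. MFAP3, a microfibril-associated membrane protein, and TNPO1, a nuclear import receptor, kept 4 and 6 regions, with overlapping groups. ZBTB20 also gained 3 regions, and PTPN14, PAFAH1B1 and TNPO1 gained 1 each, while DCBLD2, AGPAT3 and MFAP3 gained none. Values outside the lost regions include the reads of gained regions, also for TNRC6B.

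**Figure D4:**
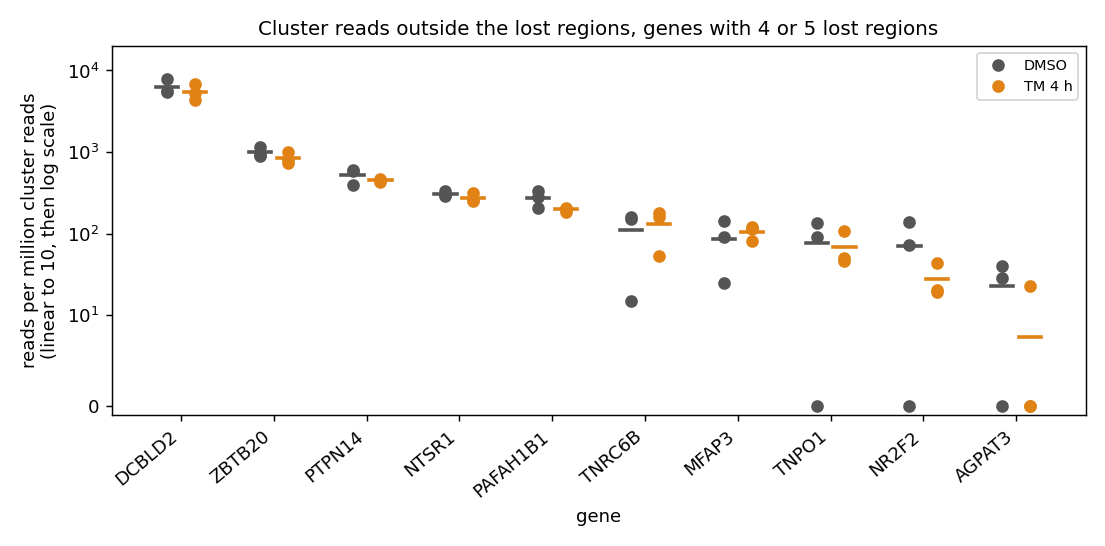
Points are the 3 DMSO (grey) and 3 TM 4 h (orange) libraries and bars their means, for the RPM that fall outside the lost regions of the 10 genes with most of them; the axis is linear up to 10 and logarithmic above. Values of the groups overlap in every gene, and NR2F2 has a mean of 70.7 in DMSO and 28.0 in TM 4 h.

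The reads of host genes outside the lost regions could be compared where all 6 libraries held some. Of 2938 genes with cluster reads in all 6 libraries after lost regions were set aside, 6.57% had all 3 TM 4 h values below all 3 DMSO values and 7.28% had them all above. Among the 517 of the 991 host genes in that set, 40 were below (7.74%, near the share of all genes) and 15 above (2.90%), and the median log2 ratio of group means was -0.07, against -0.01 for all 2938 genes. In the 674 such genes with a gained region, 19 were below (2.82%) and 93 above (13.8%), with a median of 0.11. Reads of gained regions were not set aside, so the TM 4 h values of these genes include the reads that chose them. The host genes and the genes with a gained region were thus treated differently, and their shares cannot be set side by side. These are the libraries that chose the regions, so the figures describe the host genes and test nothing.

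The 49 host genes with no TM 4 h cluster lost every DMSO region they had. Those with most reads in lost regions were SHROOM3, HPRT1, EGR3 and RHOU, singled out here after their values were seen. HPRT1, a purine salvage enzyme, had 21 DMSO reads in one lost region and 11 in the other, and its RPM was 0, 16.3 and 18.7 in DMSO. RHOU had 5, 12 and 12 DMSO reads in its region at chr1:228651661-228651704, none in TM 1 h or PBS, and 0, 5 and 6 in arsenite. It was the only gene of these 4 with reads in every DMSO library.

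The gene lists chosen for endoplasmic reticulum stress and for IGF2BP3 placed few lost regions in the stress pathways. Of 66 DMSO regions in genes of the unfolded protein response, 2 were lost (3.03%, against 6.04% of all). Of the 117 TM 4 h regions in these genes, 40 were gained (34.2%, against 8.36% of all). The lost ones lay in ATF6, a stress sensor, with 0, 5 and 10 DMSO reads at chr1:161958923-161958971, and in DERL2, a factor of protein export from the endoplasmic reticulum, with 0, 6 and 5 DMSO reads at chr17:5485169-5485203. DERL2 also gained 3 regions, and outside its lost region it stood at 0, 17.6 and 10.3 RPM in DMSO and 30.7, 65.0 and 37.7 RPM in TM 4 h, with no overlap. The TM 4 h values include the reads of the 3 gained regions, which held no DMSO cluster by their definition. A full separation upward was seen in 7.28% of the 2938 genes with reads in all 6 libraries, a set without DERL2. None of 61 DMSO regions in integrated stress response genes was lost, and 20 of 96 TM 4 h regions there were gained (20.8%).

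RNAs cleaved by IRE1 in other cells lost 3 of 34 regions (8.82%, against 6.04% of all) and gained none of 21 (8.36% of all), shares that these few regions do not set apart. RTN4, which shapes tubules of the endoplasmic reticulum, had 0, 7 and 9 DMSO reads at chr2:54973838-54973862, PMP22, a myelin membrane protein, 0, 8 and 5 at chr17:15230592-15230640, and CD59, a complement inhibitor, 0, 7 and 4 at chr11:33709797-33709852. Outside the lost regions RTN4 stood at 726, 486 and 536 RPM in DMSO and 610, 531 and 498 RPM in TM 4 h. PMP22 stood at 131, 105 and 102 RPM in DMSO and 146, 126 and 120 RPM in TM 4 h. CD59 stood at 50.4, 81.4 and 79.7 RPM against 15.4, 40.8 and 79.8 RPM. In none of the 3 genes did the groups separate.

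Membrane and secreted glycoproteins lost 8 of 104 regions (7.69%, against 6.04% of all) and gained 10 of 100 (against 8.36% of all). Among the lost were regions in EGFR, INSR, LAMC1, MET, NOTCH1 and PTPRF. PTPRF, a receptor phosphatase, had 0, 11 and 12 DMSO reads at chr1:43604072-43604121, with 13 in arsenite replicate 3 alone among the other libraries. NOTCH1, a signalling receptor, lost both of its DMSO regions, the stronger with 0, 12 and 9 reads at chr9:136495283-136495405 and none elsewhere. Outside both regions NOTCH1 stood at 0, 0 and 4.69 RPM in DMSO and 0, 0 and 15.5 RPM in TM 4 h. LAMC1, a laminin chain, had 0, 7 and 13 DMSO reads at chr1:183142825-183142903.

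Known IGF2BP target mRNAs lost 5 of 130 regions (3.85%, against 6.04% of all) and gained 13 of 133 (9.77%, against 8.36% of all). Among the genes with a lost region were CCND3, a cyclin, and HMGA2. HMGA2, a chromatin architectural protein, had 0, 6 and 9 DMSO reads in its lost region at chr12:65965092-65965123, with 7 and 18 in TM 1 h replicates 2 and 3 and 8 in PBS replicate 3. Its other 8 DMSO regions were retained, and its reads outside the lost region were 2269, 1875 and 1757 RPM in DMSO and 1481, 1082 and 1002 RPM in TM 4 h. The HMGA2 groups did not overlap, with a mean of 1967 ± 268 RPM in DMSO and 1189 ± 257 RPM in TM 4 h (SD, n = 3). Such a separation downward was seen in 6.57% of the 2938 genes with reads in all 6 libraries, which are those that chose the regions.

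Signalling genes of the Wnt, BMP, YAP and immediate early classes lost 6 of 113 regions (5.31%, against 6.04% of all). They gained 4 of 106 (3.77%, against 8.36% of all). BMP4, a secreted growth factor, had 0, 13 and 17 DMSO reads at chr14:53949902-53949978, 204 nt from its 3′ end, with 12 in TM 1 h replicate 3, 13 in PBS replicate 1 and 29 in arsenite replicate 3. BMP4 stood at 0, 46.2 and 78.7 RPM outside that region in DMSO and 15.4, 0 and 25.9 RPM in TM 4 h. ID2, a repressor that BMP signalling induces, stood at 187, 193 and 245 RPM outside its lost region in DMSO and 99.8, 137 and 105 RPM in TM 4 h, with no overlap. A separation of this kind was seen in 6.57% of the 2938 genes with reads in all 6 libraries. WWTR1, a coactivator of the Hippo pathway, had 0, 7 and 9 DMSO reads in its lost region and none elsewhere, and its partner TEAD1 0, 5 and 7, with 12 in arsenite replicate 3.

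Cell cycle genes lost 2 of 88 regions (2.27%, against 6.04% of all), in CENPF and KIF11, both of the mitotic apparatus. Cytoskeleton genes lost 1 of 82 (1.22%), in RDX, which links actin to the membrane. Translation genes lost 2 of 154 (1.30%), in EIF4G1, an initiation scaffold, and RACK1, a ribosomal protein. The RACK1 region, chr5:181241860-181241890, 4978 nt from the gene's 3′ end, had 0, 10 and 19 DMSO reads and none elsewhere. The rest of RACK1 went the other way, with 418, 350 and 321 RPM in DMSO and 802, 770 and 621 RPM in TM 4 h, and no overlap. Such a separation upward was seen in 7.28% of the 2938 genes with reads in all 6 libraries. In PBS, also unstressed, RACK1 stood at 657, 644 and 748 RPM, inside the TM 4 h range. The counts of these lists describe them and carry no test. The share of regions lost fell as their reads rose, and the part of coverage in the list shares was not tested.

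The 9 libraries that the rule did not use show where the lost regions were found again. In TM 1 h they held a cluster in 0.935%, 6.25% and 42.1% of lost regions in replicates 1 to 3, in PBS in 4.89%, 0.216% and 3.45%, and in arsenite in 4.67%, 12.7% and 30.4%. The exact (Clopper-Pearson) 95% interval was 39.4% to 44.7% for TM 1 h replicate 3 and 28.0% to 32.9% for arsenite replicate 3, which covers counting error only. Within each group the share followed the total gene count of the library, from 227961 to 1069328 in TM 1 h, from 130478 to 423906 in PBS and from 414033 to 1098488 in arsenite. Retained regions were found more often in every library, with a lowest share of 10.7% (PBS replicate 2) and a highest of 85.4% (TM 1 h replicate 3). In none of the 9 libraries was a cluster found for 507 lost regions (36.4%), 653 gained regions (35.6%) and 1036 retained regions (4.78%).

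Lost and gained regions, with medians of 13 and 14 reads in their own groups, were then compared in these 9 libraries. The share of lost minus the share of gained regions with a cluster averaged -1.08 percentage points, with 5 of 9 libraries above 0, and did not differ from 0 (exact two-sided sign-flip test over 9 libraries, p = 0.699). The groups lay on opposite sides of 0. In TM 1 h lost regions were found more often than gained ones in 3 of 3 libraries, by 0.607, 1.83 and 12.9 points (mean 5.12 ± 6.78, SD, n = 3). In arsenite they were found less often in 3 of 3 libraries, by 5.43, 6.49 and 13.7 points (mean of lost minus gained -8.55 ± 4.53, SD, n = 3). In PBS the difference was 0.795, 0.0519 and -0.206 points. Gained regions held a cluster in 0.328%, 4.42% and 29.1% of cases in TM 1 h, 4.09%, 0.164% and 3.66% in PBS, and 10.1%, 19.2% and 44.2% in arsenite. Replicate 1 of arsenite and replicate 1 of PBS had like total gene counts, 414033 and 423906. There the lost shares were 4.67% and 4.89%, and the gained shares 10.1% and 4.09%. Among regions with 11 to 15 reads in their own group, 741 lost and 846 gained, the lost regions were again found less often in all 3 arsenite libraries (3.64%, 9.85% and 27.4% against 7.21%, 13.4% and 36.3%). In TM 1 h they were found more often in replicates 2 and 3 (6.48% and 38.2% against 3.78% and 24.8%), while replicate 1 held 1 lost and 2 gained regions. In the class of 16 to 20 reads TM 1 h replicate 2 stood the other way, at 4.96% of lost and 5.20% of gained regions. By the library names, the PBS and arsenite libraries form a set of their own, and TM 1 h replicate 3 belongs to another set than replicates 1 and 2. Between TM 1 h and arsenite, stress and library set therefore cannot be told apart, while arsenite and PBS share a set.

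**Figure D5:**
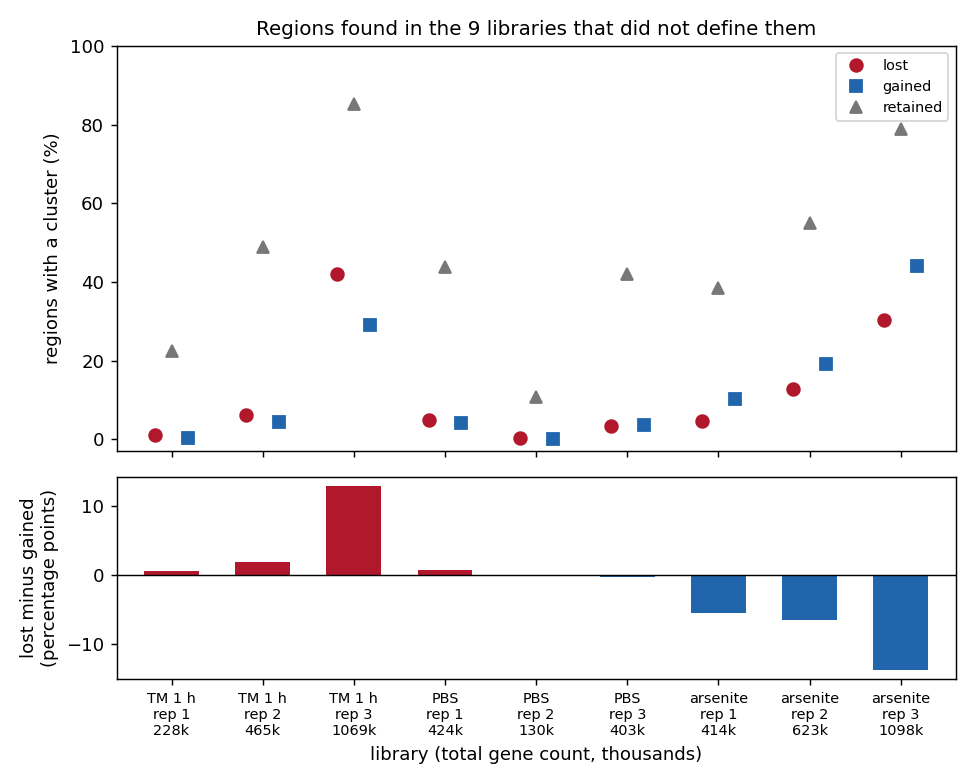
The upper panel gives the percentage of lost, gained and retained regions with a cluster in each of the 9 libraries that did not define them, and the lower panel the lost minus the gained percentage, with the total gene count under each library. The difference is above 0 in the 3 TM 1 h libraries, below 0 in the 3 arsenite libraries and between -0.206 and 0.795 points in PBS.

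Arsenite was compared with PBS by the log2 ratio of the share of lost regions to the share of retained regions in the same library. It averaged -2.18 ± 0.84 in arsenite and -4.13 ± 1.31 in PBS (SD, n = 3 each), a difference of 1.96 with no overlap between the groups. The exact two-sided permutation test gave p = 0.1, the smallest that 3 libraries against 3 can give; adjusted over the 2 tests made (Benjamini-Hochberg), this exact p was 0.2 and that of the lost minus gained share stayed at 0.699. The ratio was higher in deeper libraries within each group, and the part of depth in the difference was not tested. The arsenite and PBS libraries of like total count, 414033 and 423906, stood at -3.04 and -3.17, and in the class of 11 to 15 reads 3.64% and 3.78% of lost regions had a cluster there. Set against gained instead of retained regions, the difference turned to -0.94 (p = 0.1 by the same exact test).

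A small set of lost regions had clusters in every arsenite library. Clusters lay in all 3 arsenite lists and no PBS list for 29 lost regions (2.08%), against 5.24% of gained and 5.01% of retained regions. The PBS libraries were shallower, and the part of depth in their empty lists was not tested. The 5 regions with most arsenite reads, named after their values were seen, lay in DNAJB1, EGR3, NR4A1 (both of its regions) and FOSB. DNAJB1, an HSP40 co-chaperone, had 0, 5 and 13 DMSO reads in its lost region at chr19:14514834-14514905, 8 in TM 1 h replicate 3, and 34, 1226 and 2379 in arsenite. EGR3, a zinc-finger transcription factor, had 0, 9 and 21 DMSO reads and 80, 160 and 208 in arsenite. FOSB, a subunit of AP-1, had 4, 0 and 19 DMSO reads at chr19:45474922-45475025 and 62, 115 and 126 in arsenite. The other 24 regions had at most 102 reads over the 3 arsenite libraries.

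For 3 genes of this set, RPM summed over all clusters of the gene is given as a description, since the set was chosen on its arsenite clusters. NR4A1 stood at 70.6, 71.9 and 419 RPM in DMSO, 84.4, 46.4 and 44.3 in TM 4 h, 59.0, 0 and 0 in PBS, and 2084, 2136 and 1516 in arsenite. FOSB stood at 20.2, 0 and 86.2 RPM in DMSO, 0 in every TM 1 h, TM 4 h and PBS library, and 1765, 1991 and 973 in arsenite. EGR3 stood at 0, 12.2 and 48.7 RPM in DMSO, 0 in those same libraries, and 1615, 2049 and 1053 in arsenite. In all 3 genes DMSO replicate 3 was the highest of the DMSO libraries, and the lowest arsenite library lay above it.

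Host genes with cluster reads in every PBS and arsenite library could be compared between these groups. Those with arsenite values fully below PBS were about as many as those fully above. Of 1195 genes with cluster reads in all 6 PBS and arsenite libraries, 13.1% had all 3 arsenite RPM values above all 3 PBS values and 35.1% had them below. Membership of this set needed a cluster in PBS replicate 2, which listed 3501 clusters with 40353 reads. The part of that library's low depth in these shares was not tested. Among the 223 host genes of lost regions in that set, 34 were above (15.2%) and 41 below (18.4%), with a median log2 ratio of -0.10, against -0.39 for all 1195. Genes with a gained region gave 68 of 293 above (23.2%) and 77 below (26.3%), with a median of -0.12. NR4A1, FOSB and EGR3 fall outside this set because at least 1 PBS library listed no cluster for them.

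As a check of the labelled cells, of 7 epithelial markers KRT8 had clusters in 14 of the 15 libraries, EPCAM in 13, CDH1 in 10, KRT19 in 8, CLDN4 in 7, KRT18 in 4 and CEACAM1 in none, and the markers of blood, endothelium, connective tissue and liver (PTPRC, CD3E, PECAM1, COL1A1, COL3A1, ALB) had none in any. IGF2BP3 itself held clusters in 12 of the 15 libraries and IGF2BP2 in 10, and IGF2BP1 in none.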

How the data were processed

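Per the file headers, the authors' cluster lists, 1 per library, give position, strand, sequence, read count and conversion counts, with at least 2 reads and 2 conversion positions per cluster in the values, and a mode score that was deposited and not used here. The authors' gene table holds raw counts for 19962 genes and was used only for library totals and replicate checks. The submitters' processing notes name UMI-tools 1.1.1, Trimmomatic 0.30, Bowtie 0.12.7, featureCounts 2.0.1 and GRCh38; the cluster caller is not given in the sources used here.

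Regions were merged and classed with Python 3.11.15 and SciPy 1.17.1, checked on simulated data. Genes came from a RefSeq table by position, with strand for 27304 of 59788 genes; 271 of 271 clusters inside RefSeq promoter sequences (GRCh38.p14) were identical to them. The gene identifiers of the count table were not joined to names, so the gene tests planned with that table were not run. The named regions are the 10 with most DMSO reads, those in the 10 genes with most lost regions, up to 3 per gene list, and 6 of those in all 3 DMSO lists; a few are not reported here. Members and lists were chosen with earlier results of these data known. Same-numbered libraries did not deviate together (correlations of -0.051 to 0.025 over 5875 genes).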

Additional observations from a re-analysis of the deposited data

Results flagged for a closer look

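Lost regions were found more often than gained regions in all 3 TM 1 h libraries and less often in all 3 arsenite libraries. The mean difference in share was 5.12 percentage points in TM 1 h and -8.55 in arsenite, 13.7 points apart. The TM 1 h values were 0.607, 1.83 and 12.9, so the mean rests mainly on replicate 3. By their names, replicate 3 is in a separate set from the other TM 1 h libraries, and the arsenite libraries are in a further set. Between these groups, stress and library set cannot be told apart. This is listed because every library of each group moved to the opposite side; the difference between the groups was not tested.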

How the results depend on the processing

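The count of lost regions, 1391, moved to 892 when absence meant no TM 4 h cluster within 50 nt, to 691 when each list was cut to the length of the shortest (14287 clusters), to 27 when all 3 DMSO lists were required and to 656 from replicates 1 and 2 alone. By their names, replicates 1 and 2 of DMSO and TM 4 h belong to the same library set. Leaving out libraries gave 57 to 6896. With an overlap of 10 nt it was 1494 and with clusters of at least 5 reads 1296. The lost minus gained share, -1.08 points, turned to 0.80 with the shortest list length, to 1.68 with regions from replicates 1 and 2 alone, and to a mean log2 ratio of 0.10; leaving out libraries gave -2.82 to 0.87, with values above 0 without arsenite replicate 3 (0.51), DMSO replicate 2 (0.30) and TM 4 h replicate 3. The cause was not tested. No setting brought its p under 0.05, and the lowest, without TM 1 h replicate 3, was 0.234. The arsenite minus PBS difference of 1.96 turned to -0.94 relative to gained regions, was 1.85 with clusters of at least 5 reads and 1.21 to 2.44 with a library left out; with regions in all 3 DMSO lists it had no finite value, since PBS replicate 2 held none. With the replicate number as a replicate block these values stayed at -1.08 and 1.96 (exact sign-flip p = 0.25 for each, the smallest 3 numbers can give), which changed no call. The gene tests and their alternatives were not run. Depth limits all counts: lost regions carried a median of 13 reads over 3 libraries.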
